A study of Rattus norvegicus with 9 samples.

Results

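The genes examined here encode the core of the spliceosome and its best known regulators: SR proteins, heterogeneous nuclear ribonucleoproteins (hnRNPs), proteins of the small nuclear ribonucleoproteins (snRNPs) and other pre-mRNA processing (PRP) factors. A gene was a member if a probe set of the array named it alone and its symbol began with Srsf, Sfrs, Hnrnp, Hnrp, Snrp, Sf3a, Sf3b or Prpf. This gave 94 probe sets and 58 genes, of 14217 genes that the array's 1-gene probe sets measured. They comprised 10 SR proteins, 17 hnRNPs, 23 snRNP proteins (7 Sm, 1 U1, 11 U2 and 4 tri-snRNP proteins), 7 other PRP factors and 1 pseudogene, Srsf7-ps4. Another 8 probe sets named a matching gene together with a second one and were left out, so Hnrnpk, Snrpc and Snrpg have no value of their own as members.

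RNA came from dendrites that were cut from their cell bodies with a glass pipette, in primary cultures of hippocampal pyramidal neurons of Sprague-Dawley rats. The rats were at embryonic day 19, the cultures were 14 days old, and no treatment was given. Dendrites were pooled across cells, with 3 arrays for each of the pools of 100, 200 and 400 dendrites, 9 arrays in all. The labels call these arrays biological replicates without saying which animals or cultures each came from, and axons could not be told apart from dendrites by shape.

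Splicing joins exons in the nucleus. The snRNPs recognise the splice sites and the branch point, most of them carrying a ring of Sm proteins around their RNA. SR proteins mostly promote the use of an exon, and hnRNPs often oppose it. Several members of both families also leave the nucleus with mature mRNA, and in neurons Hnrnpa2b1 and Hnrnpk are known for binding mRNAs that travel along dendrites. The present data concern the mRNAs of these genes, not the proteins.

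Promoters of the members were read from RefSeq (rat assembly GRCr8) over the 250 bases before the transcript start, and 55 of the 58 members matched. The sequence CCGGAA, the core that ETS-family transcription factors bind, was searched on both strands. Of 4 motifs counted it had the largest excess over all promoters, and it was chosen for display after these counts were seen. It was present in 27 of 55 member promoters (49.1%), against 13.4% of all 27457 promoters and 21.1% of the 11700 promoters of genes on the array. A match is shown for the 2 highest snRNP proteins that have one and for the highest hnRNP, SR protein and other PRP factor, with 60 bases around it, 5′ to 3′ on the gene's strand, with the match in capitals (TTCCGG is the same sequence on the other strand).
Snrpe, chr13:47609261-47609320, minus strand: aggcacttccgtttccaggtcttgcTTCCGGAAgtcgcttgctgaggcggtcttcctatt
Prpf4, chr5:80875451-80875510, plus strand: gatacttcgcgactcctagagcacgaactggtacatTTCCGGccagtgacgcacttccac
Hnrnpu, chr13:92618771-92618830, minus strand: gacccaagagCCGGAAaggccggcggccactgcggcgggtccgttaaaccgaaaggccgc
Srsf5, chr6:106336616-106336675, plus strand: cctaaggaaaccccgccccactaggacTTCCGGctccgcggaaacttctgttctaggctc
Prpf18, chr17:78539825-78539884, plus strand: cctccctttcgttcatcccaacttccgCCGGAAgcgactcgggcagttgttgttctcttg
The match began 42 bases before the start in Snrpe, 24 in Prpf4, 38 in Prpf18, 113 in Srsf5 and 240 in Hnrnpu. It was found in 12 of 22 snRNP, 7 of 16 hnRNP and 5 of 10 SR promoters. The other motifs were CCAAT (49.1% of member promoters, 34.3% of all promoters and 35.1% of array genes), GGGCGG (56.4%, 32.4% and 54.2%) and TATAAA (9.09%, 13.1% and 8.06%). Members with CCGGAA and members without it had median percentiles of signal of 57.8 and 59.1. The same medians were 56.4 and 65.9 for CCAAT, 52.5 and 66.2 for GGGCGG, and 44.2 and 59.1 for TATAAA (5 members with it). Over array genes they were 51.7 and 49.6 for CCGGAA, 50.1 and 50.1 for CCAAT, and 51.9 and 47.8 for GGGCGG. For TATAAA they were 48.6 and 50.3. CCAAT was in 7 of 22 snRNP, 12 of 16 hnRNP and 4 of 10 SR promoters. GGGCGG was in 7 of 22, 13 of 16 and 8 of 10. What part the kind of gene has in the members' medians was not tested.

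Each array reports a log2 signal per probe set, and a gene's signal is the median of its probe sets. Genes were ranked within each array, and a gene's percentile is its median rank over the 9 arrays as a percent of all 14217 genes. Because signal also depends on the probes, ranks compare genes as a description. As a background, the median percentile of 52 genes typical of other organs was 33.0, and 3 of them were in the top 5%, among them the pancreatic enzyme genes Ctrb1 (98.0) and Cela1 (97.0), so that a high rank alone does not show the transcript. The members had a median percentile of 58.3, with 34 of 58 above percentile 50, as are 50% of all genes. In the top 5% by rank, which holds 5.01% of genes, were 4 of the 58 members: Hnrnpl, Snrpe, Prpf4 and Sf3b4. A median percentile of 67.4 for 46 proteasome genes and 77.2 for 57 cytosolic ribosomal protein genes placed the members between all genes and other core machinery of the cell.

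**Figure D1:**
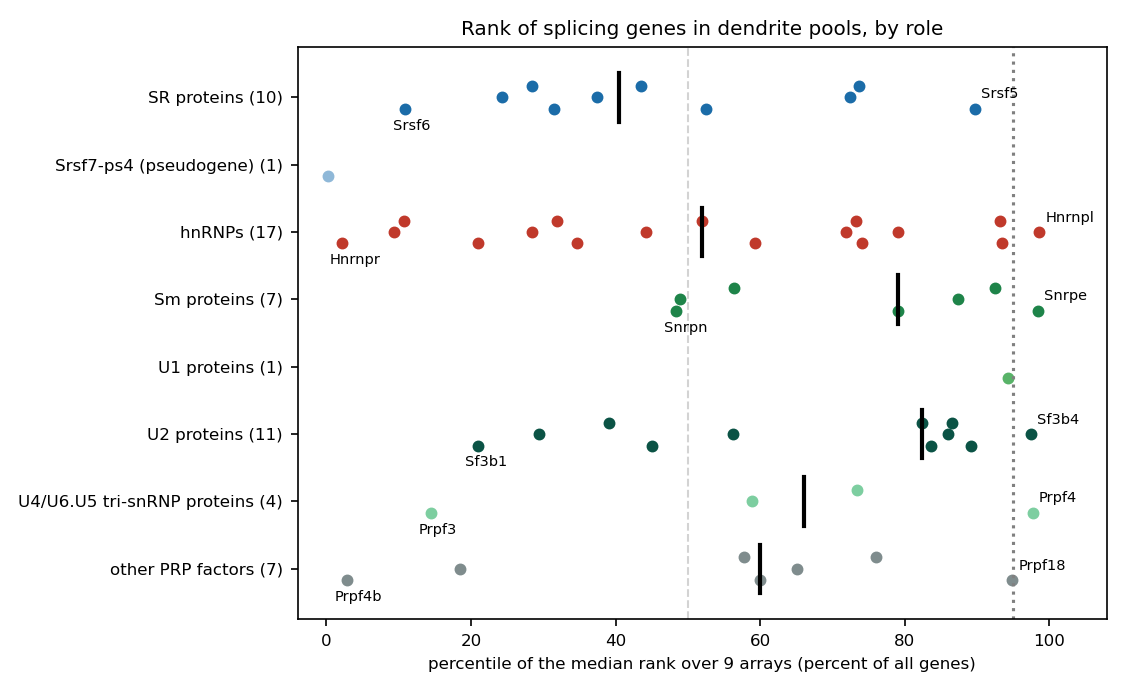
Percentile of each of the 58 members by its median rank of signal over 9 arrays, by role, with the number of genes in brackets. Black bars are medians of a role, the dashed line is the middle of all genes and the dotted line the start of the top 5%, which only Hnrnpl, Snrpe, Prpf4 and Sf3b4 passed.

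Hnrnpl, which binds CA-rich RNA and regulates alternative exons, had the highest rank of all members (percentile 98.6). Log2 signals of Hnrnpl were 11.12, 11.42 and 11.56 in pools of 100 dendrites, 11.22, 11.53 and 12.17 in pools of 200, and 11.96, 12.21 and 11.76 in pools of 400. All arrays placed it between the 97.7 and 99.2 percentiles. Of the other hnRNPs, Hnrnpa0 (percentile 93.5), a relative of the A/B family, averaged 9.84 ± 0.99 (SD, n = 9), with a range of 7.79 to 11.14, and Hnrnpm (93.3), which binds GU-rich RNA, averaged 9.80 ± 0.30. The hnRNPs spanned nearly the whole range of ranks, with 9 of 17 above percentile 50 and 4 below percentile 25, where 25% of all genes lie. At the low end stood Hnrnpr (percentile 2.17), at 5.57 ± 0.42, and Hnrnpll (9.40), a paralog of Hnrnpl known from lymphocytes, at 6.19 ± 0.68. Hnrnpa2b1, which binds the A2 response element of transported mRNAs, stood at percentile 31.9 with 6.86 ± 0.40, and its 4 probe sets averaged between 5.98 and 7.95.

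SR proteins ranked lower, with a median percentile of 40.5, 4 of 10 above percentile 50 and 0 in the top 5%. Srsf5 was the highest (percentile 89.7). The arrays gave Srsf5 log2 signals of 9.87, 9.90 and 8.56 in pools of 100 dendrites, 9.30, 9.34 and 8.93 in pools of 200, and 9.64, 9.71 and 9.31 in pools of 400. Its lowest array was one of 100 dendrites, and the 3 pool sizes overlapped. Srsf11 followed at 8.25 ± 0.61 (SD, n = 9, percentile 73.7), and Srsf1, the founding member of the family, at 8.31 ± 0.64 (72.4). Srsf6 (10.9) and Srsf9 (24.3) were lowest, at 6.13 ± 0.46 and 6.50 ± 0.51, though Srsf6 was at 76.8 by its brightest probe set. The pseudogene Srsf7-ps4 stood at percentile 0.15, near the bottom of the array.

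Of the 7 Sm proteins, which form the ring shared by most snRNPs, 5 were above percentile 50 and none below percentile 25. Snrpe, the Sm E protein, stood at percentile 98.4. In log2 units its signals were 10.90, 11.85 and 11.47 in pools of 100 dendrites, 11.92, 10.69 and 11.82 in pools of 200, and 10.68, 12.56 and 11.30 in pools of 400. The spread within each pool size was wider than the distance between their means. Snrpd2 (92.5) averaged 9.80 ± 0.53 (SD, n = 9) and Snrpd3 (87.4) averaged 9.23 ± 1.30, the largest SD of the 58 members. Snrpd1 (48.9) and Snrpn (48.4) were lowest. Snrpn encodes SmN, an imprinted brain relative of Sm B, and averaged 7.38 ± 0.69 with the probe set that names it alone. The 2 probe sets that name it together with Snurf, which shares its transcript, averaged 10.06 ± 0.35 (percentile 92.2 of probe sets) and 7.95 ± 0.48 (62.3), so that its low rank depends on the probe set.

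Among the proteins specific to 1 kind of snRNP, Snrpa, the A protein of U1 and the only U1 member measured alone, stood at percentile 94.4 with 10.02 ± 0.43 (SD, n = 9). The 11 U2 proteins had a median percentile of 82.5. Sf3b4, an SF3b subunit that contacts the pre-mRNA near the branch point, was the highest of them (97.4). Its log2 signals were 10.75, 10.93 and 10.77 in pools of 100 dendrites, 11.03, 11.26 and 11.43 in pools of 200, and 10.16, 11.18 and 11.19 in pools of 400. A single array of 400 dendrites was below all others. Sf3b3 (89.2) averaged 9.12 ± 0.72 and Sf3a2 (86.5) averaged 8.96 ± 0.56, while Sf3b1, the large subunit that holds the branch helix, stood at percentile 20.9 with 6.41 ± 0.63 and Snrpb2, the U2 B″ protein, at 29.4 with 7.30 ± 0.97. By the brightest of its 3 probe sets Sf3b1 stood at 42.1. Subunits of the same complex thus lay far apart in rank, by a distance that depends in part on the probe set.

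The tri-snRNP proteins divided in the same way. Prpf4, a protein of the U4/U6 snRNP, stood at percentile 97.7. Its log2 signals were 10.08, 11.31 and 11.11 in pools of 100 dendrites, 11.39, 11.59 and 10.20 in pools of 200, and 11.74, 11.10 and 10.20 in pools of 400. Each pool size had 1 array more than 0.5 below its others. Its direct partner Prpf3 stood at percentile 14.4, at 6.35 ± 0.32 (SD, n = 9), and at 38.3 by the brightest of its 3 probe sets. Prpf6, which bridges U5 with U4/U6, was at 73.4 and Prpf8, the scaffold at the catalytic centre, at 58.8 with 7.87 ± 0.28. Of the other PRP factors, Prpf18, a factor of the second catalytic step, was highest (94.9), followed by Prpf38b (76.0) and Prpf39 (65.1). Prpf38a (18.4) and the kinase gene Prpf4b (2.85) were lowest, though Prpf4b was at 65.0 by its brightest probe set.

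Compared as classes, snRNP proteins had a median percentile of 79.1, hnRNPs 51.9 and SR proteins 40.5. Above percentile 50 were 16 of 23 snRNP proteins, 9 of 17 hnRNPs and 4 of 10 SR proteins. The snRNP class holds only genes with the symbols of the rule. The 18 other snRNP proteins, outside the rule, had a median of 52.3, with 9 above percentile 50, so the high rank was not shared by them. The median snRNP protein ranked above the median SR protein in 9 of 9 arrays, by 11.6 to 40.3 percentile points. It ranked above the median hnRNP in 9 of 9 arrays, by 8.69 to 38.1 points. Between hnRNPs and SR proteins no order held, as hnRNPs were higher in 5 of 9 arrays. Genes are not replicates, so these are descriptions of the same 9 arrays and carry no test. With genes of 1 probe set alone the medians were 79.6 (18 snRNP proteins), 58.3 (11 hnRNPs) and 43.8 (5 SR proteins). With ranks of single probe sets in place of genes the distance was smaller, at 61.7, 53.5 and 46.5.

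**Figure D2:**
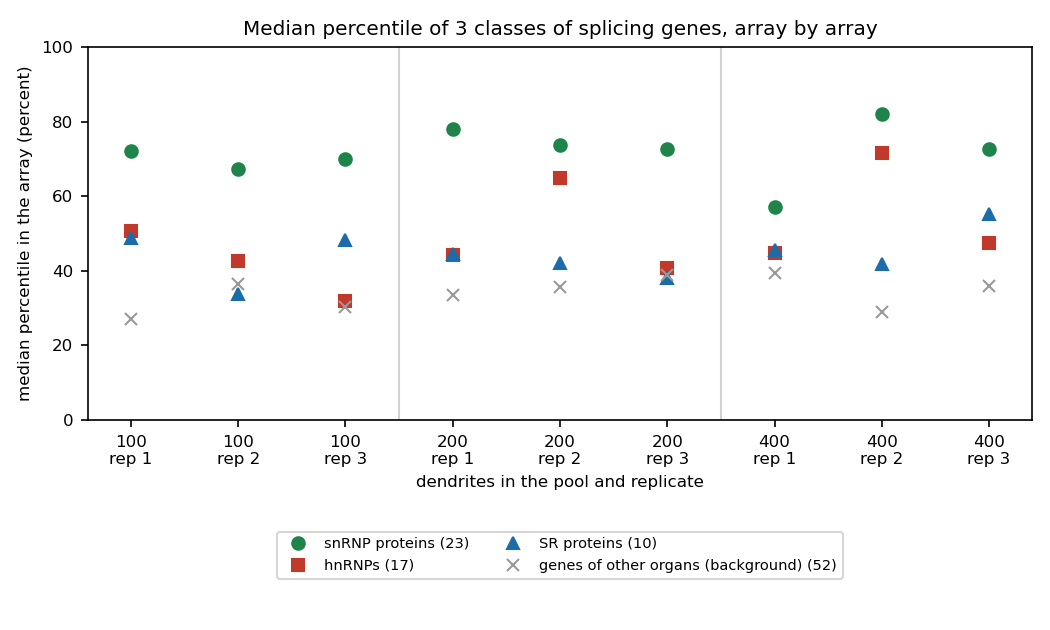
Median percentile (percent of all genes in the array) of 23 snRNP proteins, 17 hnRNPs, 10 SR proteins and 52 genes of other organs in each of 9 arrays, ordered by pool size. The snRNP median is above both other classes in 9 of 9 arrays, from 57.2 in an array of 400 dendrites to 82.0 in another array of 400.

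Where a member had several probe sets, they often disagreed. The widest gap was in Prpf18, where 1 probe set averaged 14.17 ± 0.16 (SD, n = 9), above 99.9% of all probe sets, and the other 6.24 ± 0.57. In Sf3a1, the largest SF3a subunit, the probe sets averaged 12.20 ± 0.25 and 5.46 ± 0.45, and in Hnrnpa3 the 5 probe sets ran from 6.25 to 11.62. The percentiles of Prpf18 and Sf3a1 above (94.9 and 82.5) therefore rest on the middle of 2 very different values. With each gene's brightest probe set in place of the median they were 99.9 and 98.7, and that of Hnrnpa3 was 96.8 in place of 79.1. Gaps of more than 3 log2 units between probe sets of 1 gene occurred in 18.3% of the 4525 genes with several probe sets and in 6 of 19 such members (31.6%), the others being Srsf6, Hnrnpa1 and Prpf4b. Median gaps were 1.96 in members and 1.54 in all genes. A gap between lowest and highest can grow with the number of probe sets of a gene, which was not matched here. The RNA had passed through several rounds of amplification, and on these arrays the 3′ probe set of the GAPDH control differed from the 5′ one by 0.84 to 2.99 log2 units, that of beta-actin by -0.43 to 2.41 and that of hexokinase by -1.92 to 1.15. Their part in the gaps was not tested.

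**Figure D3:**
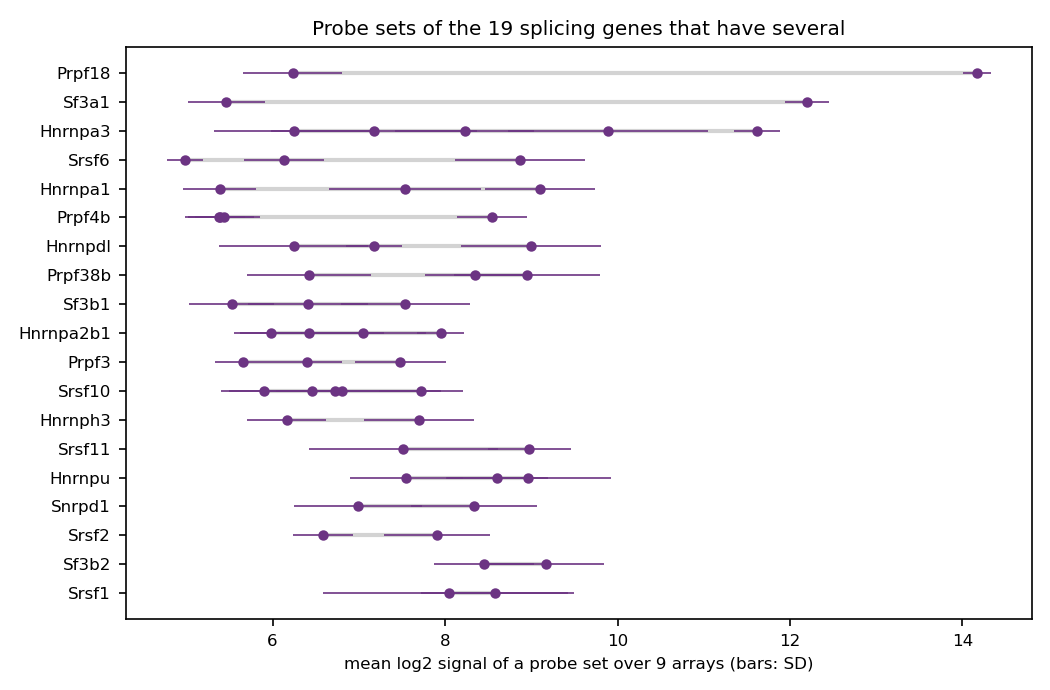
Mean log2 signal of each probe set over 9 arrays (points, bars are SD) for the 19 members with several probe sets, ordered by the gap between the lowest and the highest. Prpf18, Sf3a1 and Hnrnpa3 have the widest gaps, 7.93, 6.73 and 5.36 log2 units.

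Across arrays the members varied about as much as other genes, with a median SD of 0.60 log2 units, against 0.55 over all genes. The largest SDs were those of Snrpd3 (1.30), Snrpb (1.21) and Prpf38a (1.19), and the smallest those of Prpf4b (0.19) and Hnrnph3 (0.24). Snrpd3, Snrpb and Prpf38a each have 1 probe set, while Prpf4b and Hnrnph3 have several. Median SDs were 0.64 in members with 1 probe set and 0.46 in those with several. A single array lay apart from the other 8 in 6 members (10.3%), and in 9.21% of all genes. Joint variation over the 9 arrays was examined in 7 pairs of members that belong to the same complex. Snrpb and Snrpd3, the B and D3 partners in the Sm ring, had Pearson's r = 0.79 (exact permutation p = 0.0132, 0.0921 adjusted over 7 pairs) and Spearman's rho = 0.67 (exact permutation p = 0.0589, adjusted 0.206). Without the 2 arrays farthest from the median of Snrpb, r was 0.45, and within pool sizes it was 0.79. Leaving out the extreme arrays narrows the range of Snrpb, which can itself lower r. Whether the relation rested on them therefore cannot be told. Sf3a1 and Sf3a2 had r = 0.71 (exact permutation p = 0.028, adjusted 0.098) and rho = 0.87 (exact permutation p = 0.00451, adjusted 0.0316), with r = 0.70 without 2 arrays and 0.70 within pool sizes. The value of Sf3a1 is the middle of 2 probe sets. The dim one (mean 5.46, percentile 3.18 of probe sets) gave r = 0.72 with Sf3a2, and the bright one (mean 12.20) r = 0.10. The relation thus rested on the dim probe set, which lay near the low end of the arrays' signals. For the remaining 5 pairs, among them Snrpa1 and Snrpb2 (r = -0.13) and Snrpd1 and Snrpd2 (r = -0.32), the adjusted p of r was 0.278 or more. The pair most alike of all 1653 was Snrpa1, the U2 A′ protein, with Snrpn (r = 0.945 over 9 arrays), chosen after the values were seen and given with no test. Pairs with r above 0.8 made up 0.854% of pairs over all genes and 0.907% (15) among members.

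The next question was whether signals differed with the number of dendrites in the pool. No member and no other gene passed. In the linear model of all 9 arrays (limma, Benjamini-Hochberg adjustment over 14217 genes), 0 genes (percent called 0) had an adjusted p under 0.05 in any of the 3 contrasts, in the test over the 3 pool sizes or in the slope per doubling of the pool. The lowest adjusted p of a member was 0.999. At an unadjusted p under 0.05, 0 of 58 members passed for 400 against 100 dendrites, where 2.41% of all genes did. For 200 against 100 dendrites 3 members passed (5.17%), all higher, where 3.03% of all genes did, 1.51% higher and 1.53% lower. For 400 against 200 dendrites 0 members passed, where 2.3% of genes did. In the test over the 3 pool sizes 1 member passed unadjusted (Sf3b6), where 2.16% of genes did, and in the slope 1 (Snrpn), where 2.73% did. The median standard error of a member's difference was 0.47 log2 units.

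Sf3b6, an SF3b subunit known to contact the branch point, had the lowest unadjusted p of the members. Its log2 signals were 5.94, 7.44 and 8.88 in pools of 100 dendrites, 8.74, 9.36 and 9.52 in pools of 200, and 9.20, 8.91 and 8.14 in pools of 400. The 2 low values were both from pools of 100, whose remaining array overlapped the rest. It differed by 1.79 between 200 and 100 dendrites (95% interval 0.41 to 3.16, limma, unadjusted p = 0.0153, adjusted p = 0.9999) and by 1.33 between 400 and 100 (-0.04 to 2.71, unadjusted p = 0.0567). Without the lowest array of 100 dendrites these differences were 1.05 and 0.59, and without the highest one the second was 2.06. The other 2 members past an unadjusted 0.05 for 200 against 100 dendrites were Snrpb2 and Prpf40b, a relative of a yeast U1 protein. Snrpb2 averaged 8.13 ± 1.16 (SD, n = 3) with 200 dendrites and 6.73 ± 0.22 with 100 dendrites (limma, unadjusted p = 0.0334, adjusted p = 0.9999), and the difference of 1.40 was 0.74 without the array of 200 at 9.44. Prpf40b averaged 8.35 ± 0.41 with 200 dendrites and 7.499 ± 0.36 with 100 dendrites (limma, unadjusted p = 0.0493, adjusted p = 0.9999).

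Snrpn had the lowest unadjusted p of the members for the slope. Its log2 signals were 6.34, 6.63 and 7.54 in pools of 100 dendrites, 8.42, 6.69 and 7.32 in pools of 200, and 7.79, 7.92 and 7.79 in pools of 400. All arrays of 400 lay above all of 100, while those of 200 overlapped both. The brighter probe set shared with Snurf had 10.68, 10.35 and 10.26 with 400 dendrites and 10.30, 9.85 and 9.93 with 100 dendrites, where the groups overlapped. The dimmer shared one had 7.96, 8.01 and 8.30 with 400 dendrites and 7.91, 7.31 and 7.54 with 100, without overlap. The difference between 400 and 100 was 0.997 (95% interval -0.05 to 2.04, limma, unadjusted p = 0.0601, adjusted p = 0.999), and the slope was 0.50 per doubling (unadjusted p = 0.0495, adjusted p = 0.999). Hnrnpl was the only other member with all 3 arrays of 400 above all 3 of 100, averaging 11.97 ± 0.22 with 400 dendrites and 11.37 ± 0.22 with 100 dendrites (SD, n = 3 each). Over all genes 3.67% were higher in this sense, against 2 of 58 members (3.45%), and 2.58% lower, against 2 of 58 members (Hnrnph3 and Prpf18). Neither probe set of Hnrnph3 was lower in this sense alone, and of Prpf18 only the dimmer one was.

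**Figure D4:**
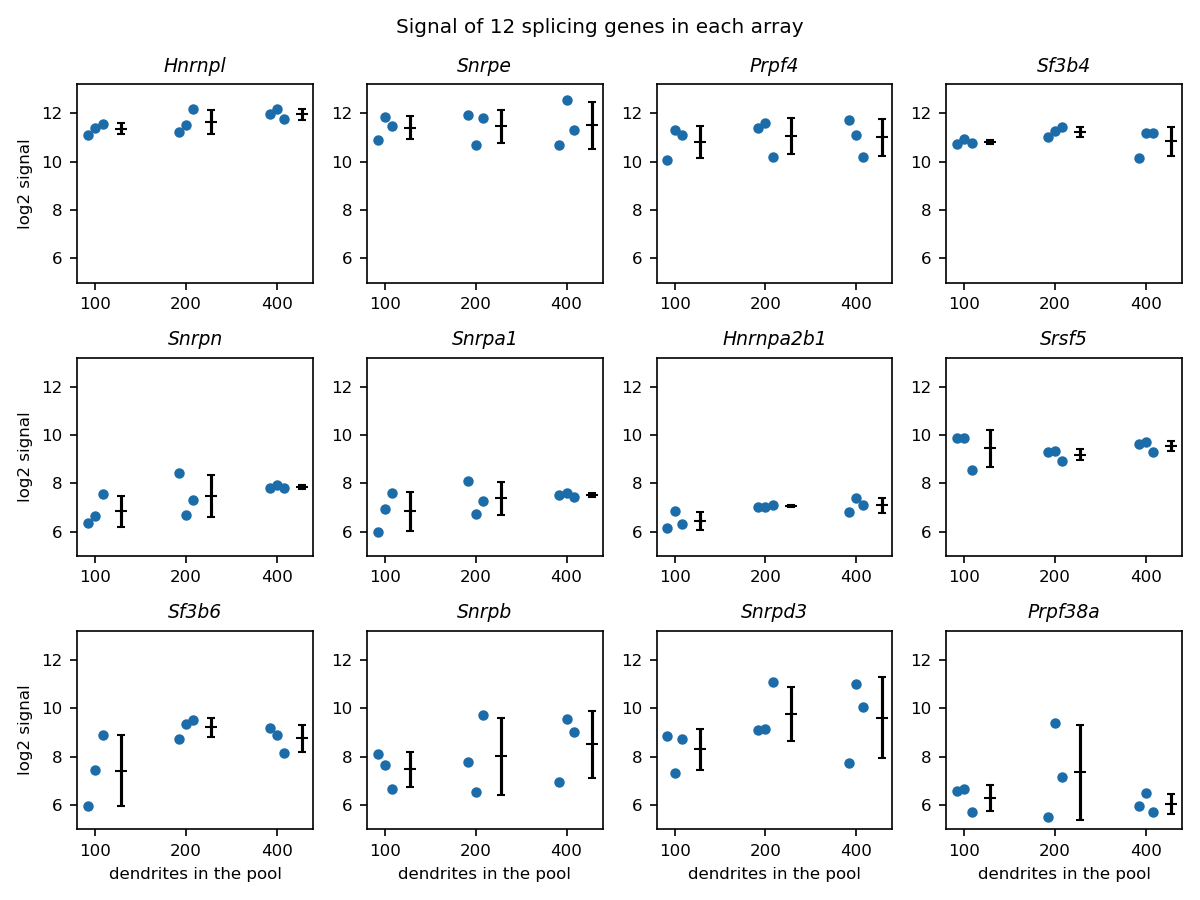
Log2 signal of 12 members in each of 9 arrays, by the number of dendrites in the pool. Points are arrays and the black bars show mean and SD (n = 3). Hnrnpl and Snrpn have no overlap between 400 and 100 dendrites, whereas Snrpe, Prpf4 and Snrpb spread as widely within as between pool sizes.

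For 200 against 100 dendrites, 7 of 58 members (12.1%) had all 3 arrays of 200 above all 3 of 100, where 4.05% of all genes did, and 0 lay below, where 3.75% did. They were Hnrnpa2b1, Hnrnpc, Hnrnpf, Prpf40b, Sf3b4, Snrpb2 and Snrpd3. Hnrnpa2b1 had 7.04, 7.02 and 7.10 in pools of 200 and 6.17, 6.85 and 6.30 in pools of 100, a difference of 0.61 (limma, unadjusted p = 0.108). In pools of 400 it had 6.80, 7.41 and 7.09. These are medians of its 4 probe sets, none of which alone had all 3 arrays of 200 above all 3 of 100. Its brightest probe set had 7.65, 8.33 and 7.68 with 200 dendrites and 7.85, 7.73 and 8.12 with 100. For 400 against 200 dendrites 3 members lay above (Hnrnpa3, Sf3a1 and Srsf2) and 3 below (Prpf18, Snrpa and Srsf7), or 5.17% each way, where 3.59% and 3.18% of genes did. Neither probe set of Sf3a1 or of Srsf2 separated these pools alone. In Prpf18 the dim one did, with 5.74, 5.76 and 5.40 in pools of 400 and 6.23, 6.46 and 6.73 in pools of 200. The bright one of Prpf18 overlapped. These contrasts share arrays and are not independent of each other.

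Of the members lower in the larger pool of a contrast, Snrpb2, Srsf7, Hnrnpu and Prpf6 were among those of lowest p. Snrpb2 averaged 7.03 ± 0.85 with 400 dendrites and 8.13 ± 1.16 with 200 dendrites (SD, n = 3 each), a difference of -1.10 (limma, unadjusted p = 0.0827), and of -0.44 without the array of 200 at 9.44. Srsf7, an SR protein with a zinc knuckle, averaged 7.37 ± 0.56 with 100 dendrites, 7.40 ± 0.36 with 200 and 6.69 ± 0.18 with 400 (SD, n = 3 each). Its difference was -0.68 for 400 against 100 dendrites (unadjusted p = 0.106) and -0.71 for 400 against 200 (0.0955, limma). Hnrnpu, the scaffold attachment factor, differed by -0.72 (unadjusted p = 0.145) and Prpf6 by -0.71 (0.153) between 400 and 100. Without replicate 1 of 100 dendrites these differences were -0.34 for Hnrnpu, -0.23 for Prpf6 and -0.44 for Srsf7, and without replicate 3 that of Prpf6 was -1.14. Hnrnpa3 differed by 1.01 between 400 and 200 (unadjusted p = 0.0558), but with its brightest probe set alone by -0.0695. Over all members the difference for 400 against 100 dendrites was above 0 in 40 of 58 (51.5% of all genes), with a median of 0.11, against 0.02 over all genes. It was above 0 in 38 for 200 against 100 (50.1% of all genes), with a median of 0.09, and in 32 for 400 against 200 (51.1% of all genes), with a median of 0.03. These medians moved with single arrays. Without replicate 2 of 400 dendrites, 30 of 58 were above 0 for 400 against 100 (median 0.03) and 24 for 400 against 200 (median -0.04), and without replicate 1 of 200, 29 were for 200 against 100 (median 0.03). Over the arrays left out in turn the median ran from 0.03 to 0.23 for 400 against 100, from 0.02 to 0.15 for 200 against 100 and from -0.04 to 0.10 for 400 against 200.

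**Figure D5:**
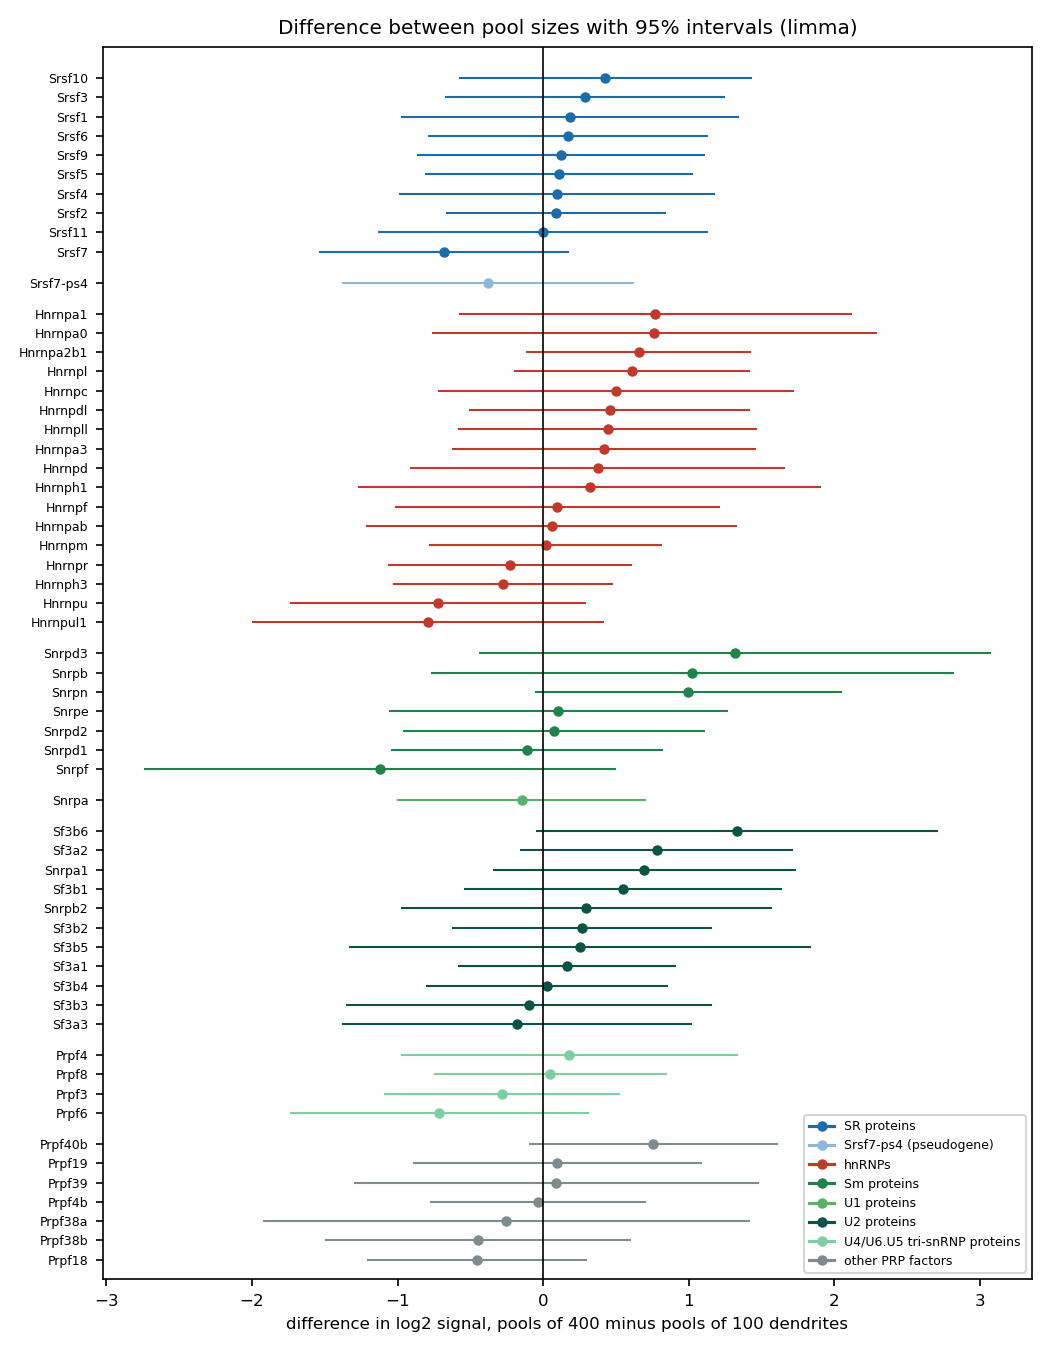
Difference in log2 signal, pools of 400 minus pools of 100 dendrites, of the 58 members by role (points), with 95% intervals from limma (n = 3 arrays each). Every interval includes 0, the highest difference being that of Sf3b6 (1.33).

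The other genes of the pathway were taken from lists of 128 measured genes. LSm proteins, which form Sm-like rings such as that of U6, had a median percentile of 60.4 (9 genes), with Lsm7 (86.5) and Lsm1 (78.4) highest and Lsm10 (9.98) lowest. The 18 other snRNP proteins had 52.3, led by the tri-snRNP proteins Sart1 (96.4) and Snrnp27 (91.0), with Rnpc3 of the minor spliceosome at 2.94. Factors of the 3′ splice site and branch point had 37.2 (13 genes), although both subunits of U2AF were high, U2af1 at 87.0 and U2af2 at 83.7, with Htatsf1 (14.0) lowest. The 21 genes of the Prp19 complex and the catalytic steps had 51.8, from Plrg1 (89.8) and Ctnnbl1 (76.4) to Cwc22 (3.26). In the exon junction complex and its partners (14 genes, 42.8), Srrm1, a splicing coactivator, was highest at percentile 98.7 with 11.62 ± 0.14 (SD, n = 9), then Acin1 (90.6), and Ddx39a (3.63) was lowest. The 44 other splicing regulators had 53.3, with Pcbp3 (96.5) and Celf5 (94.8) highest and Khdrbs2 (0.81) lowest. For kinases and the import receptor of SR proteins (9 genes) the median was 38.5, with the import receptor Tnpo3 at 95.6, Clk3 at 81.4 and Clk1 at 6.49.

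None of these 128 genes passed the test between pool sizes either (limma, 0 called). At an unadjusted p under 0.05 there were 3 higher and 2 lower for 400 against 100 dendrites, where 2.41% of all genes passed. Sart3, which recycles the U4/U6 snRNP, differed by -1.36 (unadjusted p = 0.00279), and Celf4, a neuronal regulator, by -1.20 (0.0234). Higher were Snrnp70, the U1-70K protein, by 1.55 (0.0116), Phf5a of SF3b by 1.21 (0.0191) and Cherp by 1.06 (0.025), each with an adjusted p = 0.999. Of the genes that the study examined by in situ hybridisation, Clasrp (formerly Sfrs16) stood at percentile 58.3 with 7.89 ± 0.34 (SD, n = 9). The 2 probe sets that Hnrnpk shares with its pseudogene averaged 8.42 ± 0.95 and 8.53 ± 0.84.

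The arrays had medians of 7.46 to 7.53, and one of 400 dendrites correlated least with the others (median r = 0.757, against 0.788 to 0.849). Without it the members' median percentile was 60.8, and 4 were in the top 5%. Pyramidal neuron markers had a median percentile of 75.6 (13 genes), from Tbr1 at 1.39 to Neurod2 at 99.9. Of these, 9 lay above the middle of all genes, while Camk2a (26.3), Emx1 (29.4) and Fezf2 (31.2) lay below it with Tbr1. Median percentiles were 63.3 for astrocyte, 58.4 for oligodendrocyte lineage, 45.7 for interneuron, 28.0 for microglia and 25.5 for fibroblast and mural markers. Endothelial markers had 54.3, but Vwf (99.8) and Esam (98.6) were in the top 5%. The 4 measured RNAs that are kept in the nucleus had a median percentile of 86.0, with Meg3 at 97.3, Snhg11 at 93.4, Miat at 78.6 and Xist at 10.7. What part cell body RNA or other cells have in the ranks of splicing genes was not tested.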

How the data were processed

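The deposited table holds log2 signals of 31099 probe sets on 9 rat Affymetrix arrays, made by the authors with RMA 2.0 from RNA amplified over several rounds. These values lack the centring on the median and the scaling by percentiles that the study's methods describe, which served as an alternative. The 57 control probe sets were set aside, and no filter on low signal was applied. Probe sets naming 1 gene (20826) were reduced to 14217 genes by their median, with symbols brought up to date through Entrez IDs. Pool sizes were compared with limma 3.58.1 (R 4.3.3), 1 model over all arrays and genes, two-sided, adjusted by Benjamini-Hochberg (calls under 0.05), after the fit was tested on simulated data. P-values measure the spread between these arrays, whose number limits the precision. Ranks, pairs and figures used Python 3.11.15 (numpy 2.4.6, pandas 2.3.3, matplotlib 3.10.9). Named members were the highest and lowest of each role, those of smallest p per contrast, of most and least spread and of widest probe set gap, with Hnrnpa2b1, Snrpn, Hnrnpk and Clasrp. The members and lists were chosen with earlier results of these data known. Alternatives were the probe set of highest mean, single probe sets, genes of 1 probe set, rank of the mean, quantile normalization, the methods' scaling, genes of above-median signal, other variance settings, a replicate block, the methods' t-test and each array left out. Mouse arrays were not used here.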

Additional observations from a re-analysis of the deposited data

Results flagged for a closer look

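In 6 of the 58 members (10.3%) 1 array lay apart from the other 8 by more than Dixon's 95% value, as it did for 9.21% of all genes, so this share is near the background. Chance alone gives about 5% where values are normal. Prpf38a, a protein that joins the tri-snRNP before activation, had 9.38 in an array of 200 dendrites, with 5.49 to 7.16 in the rest. Hnrnpul1 (8.27), Prpf6 (9.73) and Srsf7-ps4 (6.45) were all highest in the same array of 100 dendrites, replicate 1. Srsf10 was highest at 7.90 in an array of 400 dendrites, replicate 1, the array that correlated least with the others. Prpf38b was lowest at 6.89 in replicate 2 of 400 dendrites, with 8.12 to 8.83 elsewhere.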

How the results depend on the processing

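No gene was called in any contrast at any of 18 settings per contrast, with the lowest adjusted p of any gene at 0.051 (200 against 100 dendrites without 1 array of 100). Members past an unadjusted 0.05 numbered 0 to 3 for 400 against 100 dendrites, 1 to 5 for 200 against 100 and 0 to 3 for 400 against 200. Correlations of deviations were -0.189 to 0.093 for arrays of the same replicate number (median 0.024) and -0.191 to 0.218 for others (median -0.006). Whether arrays shared cultures or animals cannot be told from so few values. With the replicate block 0 genes were called. With the probe set of highest mean, snRNP proteins had a median percentile of 70.0, hnRNPs 62.1 and SR proteins 50.3, and with ranks of probe sets snRNP proteins had 61.7 and 7 of 94 probe sets were in the top 5%. The order of the 3 class medians was the same in each alternative tried. Hnrnpa3 turned to -0.0695 for 400 against 200 dendrites with its brightest probe set. Leaving out each array in turn gave medians of 56.9 to 61.1 for all members, 77.4 to 83.4 for snRNP proteins, 46.7 to 57.6 for hnRNPs and 39.2 to 43.7 for SR proteins, and 4 to 5 members in the top 5%.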
